A study of Rattus norvegicus with 6 samples.

Results

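Corin and the natriuretic peptide system were followed in the pituitary gland of adult male rats through 7 genes of the 33294 gene symbols counted, namely Corin, Nppa, Nppb, Nppc, Npr1, Npr2 and Npr3. The list was chosen by name, as the protease, its substrates, a related peptide and their receptors, with earlier results of these data known. Corin itself was selected on its difference between nicotine and control in these same libraries, so its values are a description and carry no test. Counts were found for 5 of the 7 genes, and these 5 also passed the filter on low counts.

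RNA was sequenced from the pituitary of 3 male Sprague-Dawley rats born to dams given nicotine tartrate (6 mg/kg per day) from a mini-pump implanted in pregnancy and of 3 males whose dams had a saline pump. All rats were 11 weeks old, and each gave 1 library. Sprague-Dawley is an outbred strain, and the sources used here do not say whether rats of a group came from separate litters, so p-values measure only the spread between these 6 libraries. Totals ranged from 28318383 to 85977002 counts. The pituitary label was checked against 7 hormone genes, of which growth hormone (Gh1), prolactin (Prl) and pro-opiomelanocortin (Pomc) were the most abundant. The 7 together reached 114000 to 176000 CPM (counts-per-million of the library total after TMM scaling) in each library. The labels' extraction text speaks of testis, but 8 testis germ cell genes summed to 0.0496 to 0.149 CPM and none passed the filter. Nicotine replicate 2 lay furthest from the other libraries, at a mean distance of 90.8 on the log2 CPM scale against 72.0 to 80.7, so values without it are given for Corin, Nppc and Npr3 and for the list medians that it moved most.

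Natriuretic peptides are hormones best known from the heart, where they lower blood pressure and promote salt excretion. Corin is a serine protease anchored in the cell membrane that cuts the precursor of atrial natriuretic peptide (ANP, gene Nppa) into the active hormone. ANP and brain natriuretic peptide (BNP, gene Nppb) act on the receptor encoded by Npr1, and C-type natriuretic peptide (CNP, gene Nppc) acts on the one encoded by Npr2. Both receptors are guanylyl cyclases that make cyclic GMP, whereas the receptor encoded by Npr3 binds all of these peptides and clears them. CNP is the member best known from the anterior pituitary, where it has been placed in gonadotrophs.

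Corin, the converting protease, was lower in every nicotine library than in every control library. It had 187, 218 and 469 counts in nicotine replicates 1, 2 and 3, or 3.97, 2.37 and 7.75 CPM after TMM scaling. In control replicates 1, 2 and 3 it had 469, 1419 and 467 counts, or 17.3, 26.8 and 12.3 CPM. The highest nicotine library, replicate 3, stood below the lowest control library, also replicate 3. The nicotine mean was 4.69 ± 2.76 CPM and the control mean 18.8 ± 7.37 CPM (SD, n = 3 each). The difference was 4.05-fold, which is -2.02 as log2 fold change (standard error, SE, 0.41) in edgeR's quasi-likelihood fit. Of the 17292 genes fitted, 19 had a more negative log2 fold change. When single libraries were left out in turn, the value for Corin lay between -2.60, without nicotine replicate 3, and -1.66, without control replicate 2. It was -1.69 without nicotine replicate 2, the library that lay apart. Groups without overlap and with nicotine lower were found for 5.14% of all genes fitted. In bulk tissue, fewer cells that express a gene and less RNA per cell cannot be told apart.

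**Figure D1:**
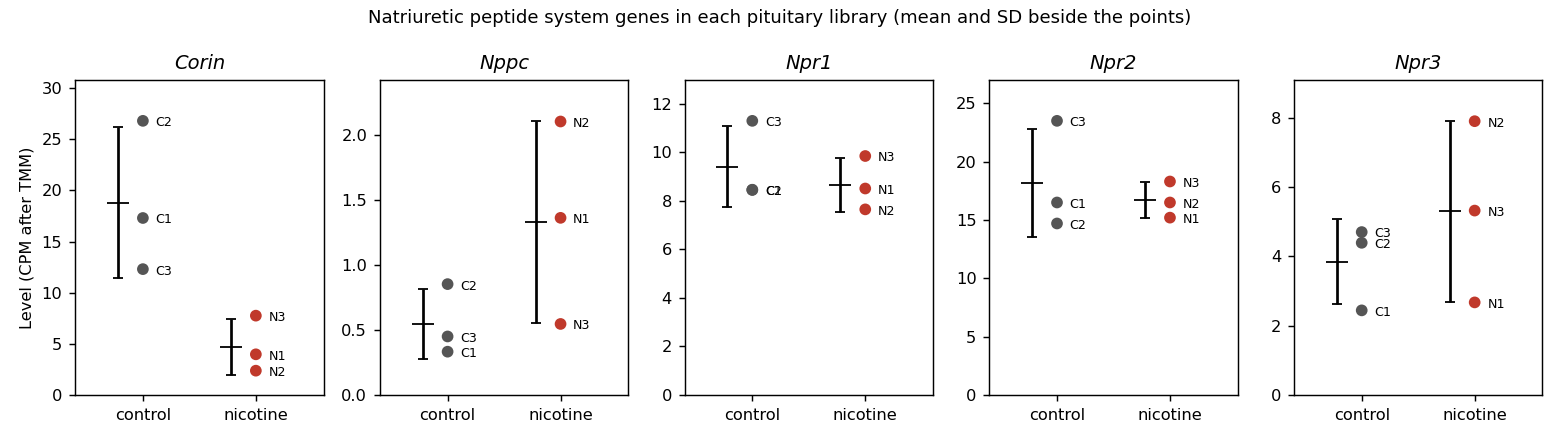
Level in CPM after TMM scaling (vertical axes from 0) of the 5 measured genes in each library, with C for control in grey, N for nicotine in red, and the group mean with its SD (n = 3) beside the points. Corin is the gene whose groups do not overlap, with nicotine at 2.37 to 7.75 CPM and control at 12.3 to 26.8 CPM.

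The peptide precursor genes Nppa and Nppb, which encode ANP and BNP, had 0 counts in all 6 libraries. A count of 0, with its limit taken as 3 counts, allows up to 0.0349 CPM in the deepest library and 0.106 CPM in the shallowest, or 0.00953 CPM over the 314872477 counts of all libraries together. These limits are per library total before TMM scaling and cover counting error only. Corin was thus measured in tissue in which the RNA of its known substrate was not detected at this depth, in either group.

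Nppa and Nppb are neighbours on rat chromosome 5 in the GRCr8 gene table, and the genes on either side of the pair were measured. Plod1, a lysyl hydroxylase gene, was at 15.9 ± 3.42 CPM after nicotine and 14.8 ± 2.62 CPM in controls (SD, n = 3 each). Clcn6, a chloride transporter gene on the other side, was at 8.5 ± 0.974 and 8.31 ± 1.42 CPM (SD, n = 3 each). The order of genes is that of GRCr8, while the counts were made on the older build rn7.

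Nppc, which encodes CNP, was the only peptide gene of the 3 with counts, and its level was low. It had 64, 193 and 33 counts in nicotine replicates 1, 2 and 3, or 1.36, 2.1 and 0.545 CPM. In controls it had 9, 45 and 17 counts, or 0.332, 0.851 and 0.449 CPM. Nicotine replicates 1 and 2 stood above all controls, and nicotine replicate 3 fell among them. Counting error was wide in the lowest library, where 9 counts correspond to 0.318 CPM before TMM scaling, with an exact (Clopper-Pearson) 95% interval of 0.145 to 0.603.

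The group means of Nppc were 1.33 ± 0.775 CPM after nicotine and 0.544 ± 0.272 CPM in controls (SD, n = 3 each). The log2 fold change was 1.23 (SE 0.53), with an unadjusted p of 0.0408 and an adjusted p of 0.806 in edgeR. DESeq2 gave an adjusted p of 0.618. Neither tool called Nppc, a call being set at more than 1.5-fold with the adjusted p below 0.1. Over all alternatives its adjusted p ran from 0.382 to 1.0. Without nicotine replicate 2 its log2 fold change was 0.63, and without control replicate 2 it was 1.77.

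Npr2, the receptor gene for CNP, showed no difference beyond the spread between rats. It was at 15.2, 16.5 and 18.3 CPM in nicotine replicates 1, 2 and 3 and at 16.5, 14.7 and 23.5 CPM in control replicates 1, 2 and 3. All nicotine libraries lay within the range of the controls, in which replicate 3 was the highest. Means were 16.7 ± 1.54 and 18.2 ± 4.63 CPM (SD, n = 3 each). The log2 fold change was -0.13 (SE 0.21, edgeR adjusted p = 0.914), and its 95% interval of -0.58 to 0.32 holds changes of either sign.

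Npr1, the receptor gene for ANP and BNP, likewise differed by less than the spread between rats. Its nicotine libraries were at 8.51, 7.65 and 9.85 CPM and its control libraries at 8.46, 8.45 and 11.3 CPM. Means were 8.67 ± 1.11 and 9.41 ± 1.66 CPM (SD, n = 3 each). Control replicate 3 was the highest library for both Npr1 and Npr2. The log2 fold change of Npr1 was -0.12 (SE 0.21, 95% interval -0.58 to 0.34, edgeR adjusted p = 0.923). Without control replicate 3 the sign turned for both receptors, to 0.04 for Npr1 and 0.10 for Npr2.

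Npr3, the clearance receptor gene, varied most between rats among the receptors, relative to its mean level. It was at 2.67, 7.90 and 5.32 CPM in nicotine replicates 1, 2 and 3 and at 2.44, 4.39 and 4.70 CPM in controls. Replicate 1 was the lowest library in both groups, and nicotine replicates 2 and 3 stood above all controls. Means were 5.30 ± 2.61 CPM after nicotine and 3.84 ± 1.23 CPM in controls (SD, n = 3 each). The log2 fold change was 0.46 (SE 0.38, 95% interval -0.37 to 1.29, edgeR adjusted p = 0.843). Leaving out nicotine replicate 2 brought it to 0.03, and leaving out nicotine replicate 1 to 0.77.

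**Figure D2:**
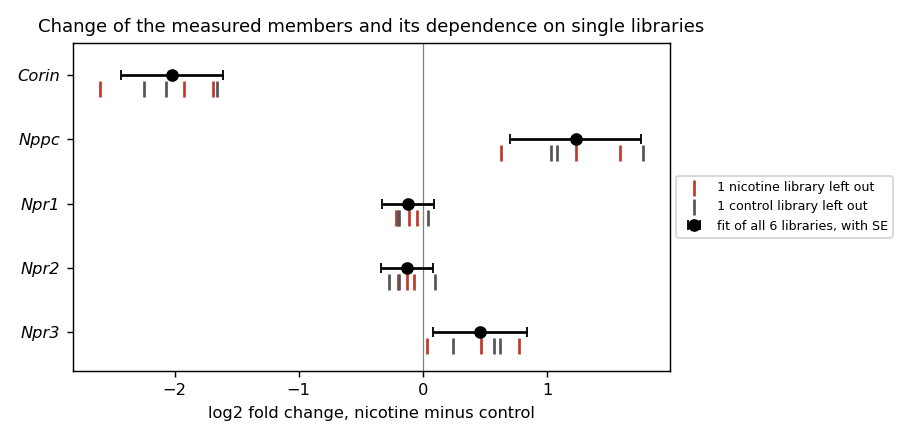
Log2 fold change, nicotine minus control, of the 5 measured genes (points, with the SE from edgeR) and the values with 1 library left out (ticks, red for a nicotine and grey for a control library). Corin stays between -2.60 and -1.66, while Npr3 reaches 0.03 and Npr1 and Npr2 cross 0.

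Apart from Corin, 4 members could be tested, and 0 of these 4 were called by edgeR, where 0% of all 17292 genes were called. At an unadjusted p under 0.05 there was 1, Nppc, against 6.14% of all genes. DESeq2 also called 0 of the 4, against 0.339% of the 18001 genes to which it gave an adjusted p. The balance between receptors was compared within each library, where gene length cancels between groups. Npr2 had 1.79, 2.15 and 1.86 times the counts of Npr1 in nicotine replicates 1, 2 and 3, and 1.95, 1.74 and 2.07 times in controls. The mean ratio was 1.93 ± 0.191 and 1.92 ± 0.167 (SD, n = 3 each; exact two-sided permutation test, p = 1.0).

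The counts of Npr3 relative to those of Npr1 and Npr2 together were 0.113, 0.328 and 0.189 after nicotine and 0.0976, 0.189 and 0.135 in controls. Means were 0.210 ± 0.109 and 0.141 ± 0.0461 (SD, n = 3 each; exact two-sided permutation test, p = 0.5). The adjusted p over these 2 ratios was 1.0 for each (exact permutation test), and 3 libraries against 3 cannot give a p under 0.1. Levels of different members were not ranked against each other, since transcript lengths were not used here.

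On GRCr8, Corin lies on chromosome 14 beside Nfxl1, a zinc finger gene, and Cnga1, a cyclic nucleotide-gated channel gene, with Atp10d, a phospholipid flippase gene, on its other side. Their log2 fold changes were 0.03 (SE 0.21) for Nfxl1, 0.20 (SE 0.25) for Cnga1 and -0.08 (SE 0.22) for Atp10d, with adjusted p of 0.981, 0.889 and 0.952 from edgeR. The groups overlapped for each. Beside Nppc on chromosome 9, Cops7b and Dis3l2 had values of 0.29 and 0.07, with adjusted p of 0.840 and 0.964 from edgeR. A predicted gene next to Corin, LOC102550273, had 0 counts in every library.

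Genes that handle the peptides or their protease were taken as a list of 7, of which 6 were tested. Furin and Pcsk6 encode proprotein convertases, Pcsk6 being known to activate corin, and Mme encodes neprilysin, which degrades natriuretic peptides. The list had 0 calls in edgeR and 0 in DESeq2, a median log2 fold change of 0.06 (-0.18 without nicotine replicate 2) beside 0.01 over all genes fitted, and 2 genes at an unadjusted p under 0.05. The most abundant was Pcsk6, at 141 ± 21.5 CPM after nicotine and 115 ± 9.87 CPM in controls, with a log2 fold change of 0.29 (edgeR adjusted p = 0.821). Adam10, a sheddase, had a log2 fold change of 0.01, and Ide, the insulin-degrading enzyme, one of 0.11.

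Furin was at 38.8, 41.5 and 49.8 CPM in nicotine replicates 1, 2 and 3 and at 26.2, 30.5 and 38.7 CPM in controls. Its nicotine libraries just cleared the highest control, a log2 fold change of 0.45 (SE 0.19, edgeR adjusted p = 0.806). Dpp4, which encodes a dipeptidyl peptidase of the cell surface, lay the other way. It was at 0.318, 0.608 and 0.677 CPM after nicotine and 0.849, 1.29 and 1.11 CPM in controls, a log2 fold change of -1.01 (SE 0.37, edgeR adjusted p = 0.785). Mme was at -0.02 on the same scale. Ostn, whose product osteocrin binds the clearance receptor, was removed by the filter, with at most 0.0369 CPM.

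Other guanylyl cyclases and their ligands formed a list of 10, of which 5 were tested. It had 0 calls in edgeR and 1 in DESeq2, 1 gene at an unadjusted p under 0.05, and a median log2 fold change of -0.07, or -0.16 without nicotine replicate 2. The subunits of the soluble cyclase, the receptor for nitric oxide, were close to 0. Their log2 fold changes were 0.13 for Gucy1b1, -0.07 for Gucy1a1 and -0.01 for Gucy1a2, at mean levels of 19.4, 17.6 and 10.7 CPM over the 6 libraries.

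The gene called by DESeq2 was Guca2a, which encodes guanylin, a peptide best known as the intestinal ligand of the cyclase encoded by Gucy2c. Guca2a was at 0.106, 0.684 and 0.363 CPM in nicotine replicates 1, 2 and 3 and at 1.22, 3.82 and 1.03 CPM in control replicates 1, 2 and 3. The groups did not overlap, and control replicate 2 was the highest for Guca2a as it was for Corin. The log2 fold change was -2.32 (SE 0.60), with an adjusted p of 0.760 from edgeR and 0.0274 from DESeq2. It lay between -3.12 and -1.40 with 1 library left out, the latter without control replicate 2 and the former without nicotine replicate 2. Counts were few, from 5 to 202 a library. Gucy2c itself was at a mean of 0.306 CPM, with a log2 fold change of -1.13 (SE 0.64, edgeR adjusted p = 0.821).

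The 3 nitric oxide synthase genes, which feed the soluble cyclase, had their median at 0.51 on the log2 scale, with 0 calls in edgeR, 0 in DESeq2 and 1 gene at an unadjusted p under 0.05. That gene was Nos3, the endothelial form, at 1.63, 1.5 and 1.70 CPM after nicotine and 0.702, 0.775 and 0.264 CPM in controls. Its log2 fold change was 1.45 (SE 0.38, adjusted p = 0.760 by edgeR and 0.148 by DESeq2), and the groups did not overlap. The median of the 3 genes was 0.17 without nicotine replicate 2 and 0.28 without control replicate 1. The sum of 9 endothelial marker genes was 218 to 353 CPM after nicotine and 172 to 231 CPM in controls, Plvap and Kdr being the most abundant, with all 9 at a positive log2 fold change. Of these, 0 were called by edgeR or DESeq2, 6 had an unadjusted p under 0.05 and 5 had groups without overlap, all higher. Over all genes fitted, 6.14% had such a p in either direction, and 6.12% had groups without overlap and nicotine higher. Per 1000 CPM of the 9 endothelial markers, Nos3 was at 5.72, 6.87 and 4.82 CPM after nicotine and 3.84, 3.36 and 1.53 CPM in controls. The control values rest on 19, 41 and 10 counts of Nos3, and the part of endothelial content in its difference was not tested. Nos1, the neuronal form, was at a log2 fold change of 0.51 and Nos2, the inducible form, at -0.61, with a mean level of 3.94 CPM and 0.322 CPM. Their groups overlapped.

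Effectors of cyclic GMP formed a list of 12, of which 11 symbols were in the files and 7 were tested. There were 0 calls in edgeR and 0 in DESeq2, a median log2 fold change of 0.20, and 2 genes at an unadjusted p under 0.05. Kcnma1, a potassium channel gene whose product is opened through cyclic GMP signalling, was at 15.4 ± 2.60 CPM after nicotine and 10.9 ± 1.31 CPM in controls without overlap (log2 fold change 0.50, SE 0.20, edgeR adjusted p = 0.806). Prkg1, the cyclic GMP-dependent kinase gene, was at 1.08, 0.814 and 1.01 CPM after nicotine and 1.40, 2.18 and 1.14 CPM in controls. Its nicotine libraries were all below the controls, with a log2 fold change of -0.75 (SE 0.34, edgeR adjusted p = 0.807) that shrank to -0.40 without control replicate 2. Vasp, a substrate of that kinase and the most abundant of the list at a mean of 26.1 CPM, had a log2 fold change of 0.27 (edgeR adjusted p = 0.827). The median of the list was -0.06 without nicotine replicate 2. Cnga1 is part of this list and was given above as a neighbour of Corin.

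Phosphodiesterases and exporters, which remove cyclic nucleotides from the cell, formed a list of 18 genes, of which 13 were tested. Calls were 0 in edgeR and 0 in DESeq2, and 0 genes had an unadjusted p under 0.05. The median log2 fold change was 0.09, with 7 genes positive and 6 negative, between -0.29 and 0.45, and the median moved to between -0.09 and 0.26 with 1 library left out. The most abundant were Pde1a, Pde10a and Pde3b, at means of 107, 64.9 and 61.0 CPM and log2 fold changes of -0.29, 0.10 and -0.22. Pde5a, a phosphodiesterase specific for cyclic GMP, was at 0.09 on that scale, and 2 genes of the photoreceptor enzyme, Pde6b and Pde6h, had 0 counts throughout.

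Corin belongs to the transmembrane serine proteases, and 18 relatives were listed, of which 7 were tested. Calls were 0 in edgeR and 0 in DESeq2, and 0 had an unadjusted p under 0.05. Their log2 fold changes lay between -0.33 and 0.59 with a median of 0.14. St14, which encodes matriptase, was the most abundant at a mean of 32.2 CPM (log2 fold change 0.02), followed by hepsin (Hpn) at 4.07 CPM (0.24) and Tmprss2 at 3.87 CPM (0.00). The groups overlapped for all 7. Without nicotine replicate 2 the median of the list was -0.10.

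**Figure D3:**
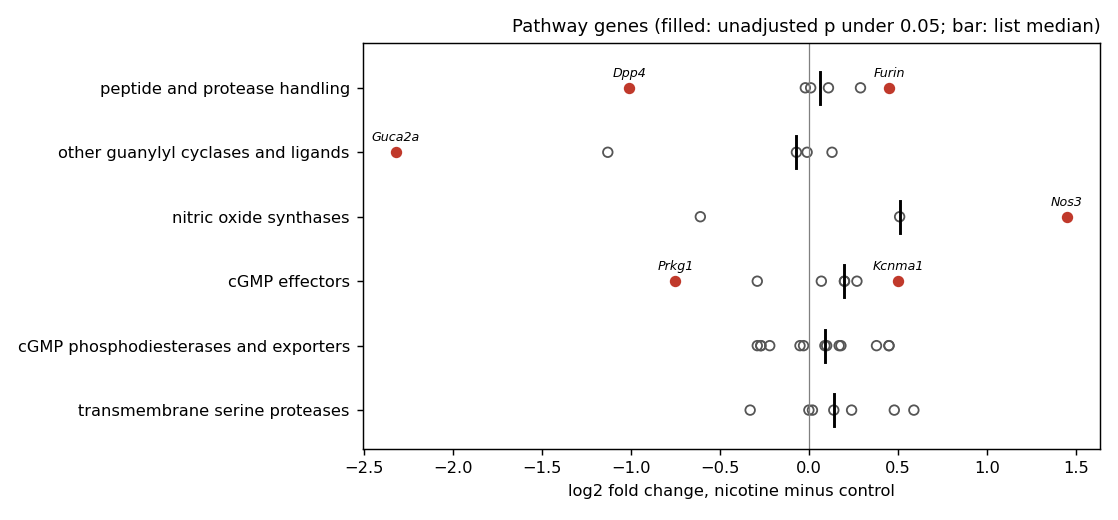
Log2 fold change, nicotine minus control, of each tested gene of 6 lists around the members, with filled red points for an unadjusted p under 0.05 in edgeR and a black bar at each list's median. Medians lie between -0.07 and 0.51, and Guca2a at -2.32 and Nos3 at 1.45 are the outermost genes.

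Over these 6 lists together, 41 genes were tested and 0 were called by edgeR. The 6 genes at an unadjusted p under 0.05 were 14.6% of the 41, with 3 higher and 3 lower, beside the 6.14% of all genes. Groups did not overlap with nicotine higher for 3 genes, or 7.32%, beside 6.12% of all genes fitted, and with nicotine lower for 3, also 7.32%, beside 5.14%. The median log2 fold change was 0.09.

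Levels of cell type markers were set beside some of these values. Of 13 meningeal and arachnoid genes, which mark the membranes around the gland and brain, 12 had a negative and 1 a positive log2 fold change, with a median of -0.77 that was -0.36 without nicotine replicate 2. edgeR called 0 of them, 5 had an unadjusted p under 0.05, all lower, and DESeq2 called 1, Gjb2, a gap junction gene, at an adjusted p of 0.0738. Over all genes, 6.14% had such an unadjusted p in either direction, and DESeq2 called 0.339%. None of the 13 was at 0. Their summed level was 325, 134 and 440 CPM in nicotine replicates 1, 2 and 3 and 420, 406 and 420 CPM in controls, with Ptgds, the prostaglandin D synthase gene, the largest term and Gjb6, another gap junction gene, the next. Nicotine replicate 2 was the lowest library for both this sum and Corin.

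Nicotine replicate 3 had the highest sum, of which Ptgds alone was 314 CPM, with Corin at 7.75 CPM. Without Ptgds the sums were 90.7, 75.1 and 126 CPM in nicotine replicates 1, 2 and 3 and 106, 143 and 124 CPM in controls. Control replicate 2 then had the highest sum, and it was also the highest library for Corin. Per 1000 CPM of the 13 markers, Corin was at 12.2, 17.7 and 17.6 CPM after nicotine and at 41.2, 66.2 and 29.4 CPM in controls. Without Ptgds it was at 43.7, 31.5 and 61.6 CPM after nicotine and 163, 188 and 99.3 CPM in controls, per 1000 CPM of the remaining 12. These ratios use the same Corin values and are a description, and the part of meningeal content in the difference of Corin was not tested.

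Heart muscle genes were listed because Corin and Nppa are best known from that tissue. Of 12, 7 were tested, with 0 calls in edgeR or DESeq2, 0 at an unadjusted p under 0.05, and a median log2 fold change of -0.04, or 0.32 without nicotine replicate 2. Nkx2-5, a defining transcription factor of heart muscle, had 0 counts in all libraries, and Myl7, the atrial myosin light chain gene, had at most 0.0991 CPM. Myh6 and Tnnt2, which encode a myosin heavy chain and a troponin, were the most abundant, at means of 6.61 and 4.44 CPM. The summed level of the 12 was 13.7 to 24.3 CPM after nicotine and 14.2 to 21.6 CPM in controls.

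Gonadotroph markers were set beside Nppc. The 4 genes Lhb, Fshb, Gnrhr and Nr5a1 had positive log2 fold changes with a median of 0.97. There were 0 calls in edgeR and DESeq2, and 3 of the 4 were at an unadjusted p under 0.05, beside 6.14% of all genes. Their sum was 785, 1850 and 708 CPM in nicotine replicates 1, 2 and 3 and 826, 523 and 542 CPM in controls, with none of the 4 at 0. Without nicotine replicate 2 the median was 0.29. Nicotine replicate 2 was the highest library for both the sum and Nppc. Per 1000 CPM of these markers, Nppc was at 1.73, 1.13 and 0.770 CPM after nicotine and 0.403, 1.63 and 0.828 CPM in controls. The groups overlapped, as they already did for Nppc before this division. Over the 6 libraries the Pearson correlation of Nppc, on the log2 scale, was 0.638 with the gonadotroph sum and -0.828 with the meningeal sum. For Corin it was -0.789 and 0.777 with the same sums. Corin was noticed for its group difference, which these correlations contain, and nicotine replicate 2 was the extreme library of both sums. Over 6 libraries they therefore cannot tie either gene to 1 of these 2 lists. This ratio and these correlations are a description, and the part of gonadotroph content in the values of Nppc was not tested.

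**Figure D4:**
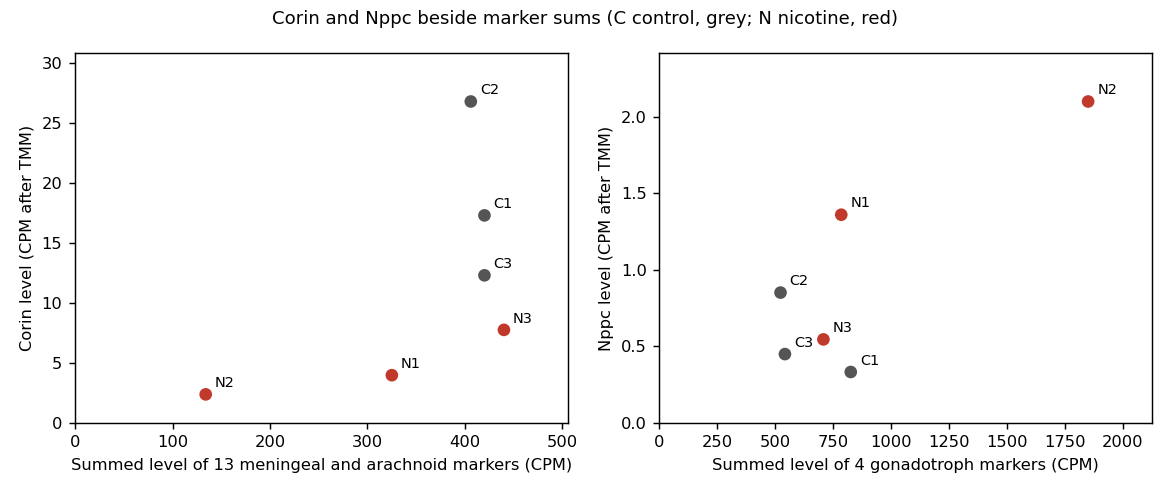
Level of Corin against the summed level of 13 meningeal and arachnoid markers (left) and of Nppc against 4 gonadotroph markers (right), in CPM, 1 point per library, C for control in grey and N for nicotine in red. Nicotine replicate 3 has the highest meningeal sum, 440 CPM, of which Ptgds is 314 CPM, with Corin at 7.75 CPM. Without Ptgds, control replicate 2 has the highest meningeal sum, 143 CPM. Nicotine replicate 2 has the highest gonadotroph sum, 1850 CPM, with Nppc at 2.1 CPM.

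The markers of other cells of the gland were also summed. For smooth muscle and pericyte markers the median log2 fold change was 0.84 over 10 genes, all positive, of which edgeR called 0, DESeq2 called 2, Acta2 and Abcc9, and 6 had an unadjusted p under 0.05. Their sum was 85.8, 65.2 and 231 CPM in nicotine replicates 1, 2 and 3 and 57.0 to 69.2 CPM in controls. Tagln and Myh11, genes of the contractile apparatus, were the most abundant. The sum of 231 CPM held 138 CPM of Tagln alone. In nicotine replicates 1 and 2 Tagln was at 15.1 and 10.6 CPM, and in controls at 14.6 to 32.4 CPM. Pituicyte markers, for the support cells of the posterior lobe, had a median of 1.40 over 5 genes, with 0 calls in edgeR, 0 in DESeq2 and 4 at an unadjusted p under 0.05, and summed to 67.1 to 138 CPM and 51.4 to 91.0 CPM, of which Scn7a and Col25a1 were the most abundant. Folliculostellate and stem cell markers had a median of 0.30 over 5 genes, with 0 calls in edgeR and 1 in DESeq2, Cyyr1, and S100b and Fxyd1 were the most abundant. Over all genes, 6.14% were at an unadjusted p under 0.05 in edgeR, and DESeq2 called 0.339%. Without nicotine replicate 3 the smooth muscle median was 0.53, and without control replicate 3 the pituicyte and folliculostellate medians were 0.86 and 0.12. The part of these cells in the values of the members was not tested.

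Among all 17292 genes, those whose log2 CPM followed Corin most closely over the 6 libraries were listed by Pearson's r. The first 8 were LOC120096386, Il13ra2, LOC120094808, Sema3d, Foxf2, LOC120102222, Prmt8 and Cd8a, with r from 0.995 down to 0.983. Since these libraries include the contrast for which Corin was noticed, a high r here partly restates the difference between groups, and all 8 had their 3 nicotine libraries below the 3 controls. The r of deviations from the group means was 0.929 to 0.984, and it is not independent of the choice of these 8 genes by their r. These values come from the same 6 libraries and describe them only.

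Il13ra2, the decoy receptor for interleukin 13, was the closest gene above 1 CPM in all libraries, at 7.38, 4.88 and 9.32 CPM after nicotine and 14.9, 19.2 and 12.9 CPM in controls. Sema3d, a secreted guidance factor gene, was at 2.55, 2.08 and 3.73 CPM after nicotine and 6.20, 6.75 and 5.20 CPM in controls. Foxf2 encodes a forkhead transcription factor of mesenchymal cells and pericytes, and it was at 0.912, 0.684 and 1.42 CPM after nicotine and 1.85, 2.78 and 1.80 CPM in controls. In each of the 3 genes control replicate 2 was highest and nicotine replicate 2 lowest, as for Corin. The 3 uncharacterised LOC genes were all below 1 CPM.

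**Figure D5:**
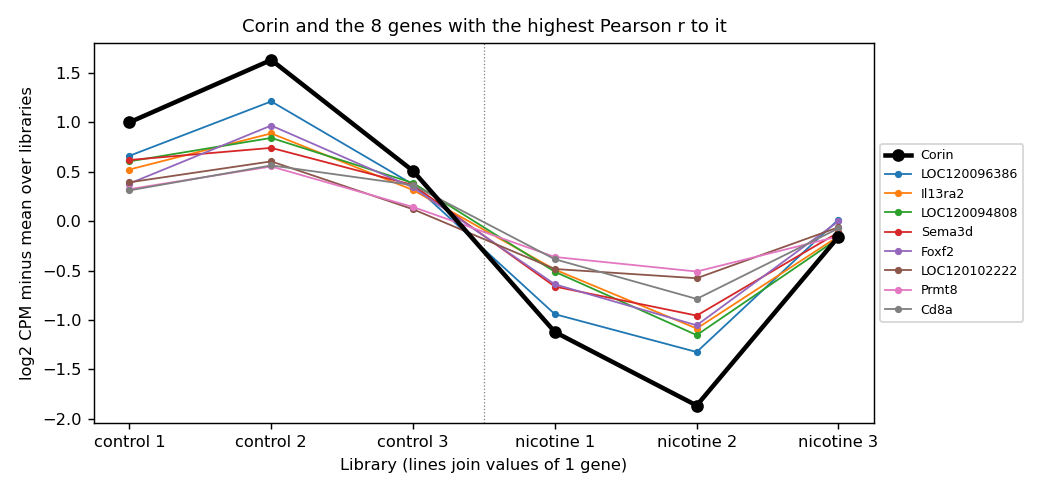
Log2 CPM minus its mean over the 6 libraries for Corin (thick black line) and the 8 genes with the highest Pearson r to it, with lines joining the values of 1 gene. All 9 lines are highest in control replicate 2 and lowest in nicotine replicate 2, and Corin has the widest range.

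For Nppc the 5 genes of highest r were Rtn4rl1, RGD1307554, Dedd2, H2ax and Cnot4, with r between 0.997 and 0.987. Their groups overlapped, and their log2 fold changes were 0.13 to 0.32, smaller than the 1.23 of Nppc. Rtn4rl1, a Nogo receptor-like gene, was at 30.0, 33.5 and 24.7 CPM after nicotine and 22.5, 26.6 and 23.7 CPM in controls. No gene was common to the lists for Corin and Nppc. Corin was lowest and Nppc highest in nicotine replicate 2, so a gene of high r to both was unlikely from the start.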

How the data were processed

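Paired-end stranded reads of 6 pituitary libraries were mapped by the authors to rn7 with HISAT2 2.1.0 and assigned to ncbiRefSeq genes with featureCounts. The deposited values are counts per gene symbol, not normalized. Whether reads or pairs were counted, the strand setting and the handling of multiply mapped reads are not given in the sources used here.

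Calculations used R 4.3.3, edgeR 4.0.16, DESeq2 1.42.0 and scipy 1.17.1. filterByExpr kept 17292 of 24546 genes with a count. Groups were compared across all genes by edgeR's quasi-likelihood test with TMM scaling and Benjamini-Hochberg adjustment, with calls set at more than 1.5-fold and an adjusted p below 0.1. On simulated counts with 200 altered genes it called 49.5% at a log2 fold change of 1 and 91.8% at 2. Those counts were drawn from the fitted means and dispersions, with no library lying apart, so the shares need not hold for the real libraries. CPM are TMM-scaled unless stated otherwise, and log2 CPM used a prior count of 2.

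The members and lists were chosen with earlier results of these data known. All members were named, with the 3 most abundant genes of each pathway list and those at an unadjusted p under 0.05, the 2 most abundant of each cell type list, and the genes of highest r to Corin (8) and Nppc (5). Others were named after their values were seen. Neighbours came from RefSeq's GRCr8 table, in which all 7 members matched. Alternatives were DESeq2, RLE, library sizes alone, other filters, the replicate block and leaving out each library.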

Additional observations from a re-analysis of the deposited data

How the results depend on the processing

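The number of genes called, 0 in the edgeR fit of all libraries, was 61 with DESeq2, 1 with library sizes alone, 2 without a filter, 2 with the replicate number as a block, and 0 to 9 with 1 library left out, with 9 without nicotine replicate 3, 4 without control replicate 2 and 1 without nicotine replicate 2. RLE, at least 10 counts in every library and edgeR's older fit, added after seeing the data, gave 0. The log2 fold change of Corin lay between -2.10 and -1.99 under the other settings, with -2.10 under the replicate block, and between -2.60 and -1.66 with 1 library left out. Nppc, Npr1, Npr2 and Npr3 were never called. With 1 library left out, Npr1 ranged from -0.22 to 0.04 and Npr2 from -0.27 to 0.10, both turning positive without control replicate 3. Nppc fails the filter of 10 counts in every library, where it has no value. Deviations of same-numbered libraries from their group means correlated at 0.0264, -0.198 and -0.0785, and those of differently numbered libraries at -0.159 to 0.196. With 3 libraries a group these values cannot decide whether the numbers pair the rats, which the sources used here do not state. Under the block Nppc, Npr1, Npr2 and Npr3 were at 1.20, -0.11, -0.11 and 0.41, again not called. Both genes called under the block were lower after nicotine. The cause was not tested. Library sizes alone moved the median over all genes, on the log2 scale, from 0.007 to 0.057. Depth limits Nppc, at 9 counts in 1 library, and Guca2a, at 5.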
